A study of Mus musculus with 9 samples.

Results

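The 40 genes described here code for the interstitial and basement membrane collagens of the liver, the glycoproteins and proteoglycans laid down with them, the enzymes that crosslink or cut them, and the contractile, vitamin A and lectin genes that mark hepatic stellate cells. They were picked by symbol for these roles, and all 40 were found among the 57010 genes of the deposited table. RNA-seq was made from the livers of male BALB/c mice in 3 groups of 3 libraries. The AT3 and CPT libraries share 1 treatment label, acute liver injury brought on by cisplatin, and the CON libraries carry the treatment label none. The meaning of AT3 is not stated in the labels, while atractylenolide III, a sesquiterpene lactone from plants, appears in the title of the series beside interleukin-17 and NF-κB signalling. No label used here gives dose, time after treatment, age or whether each library came from 1 animal, so p-values measure the spread between libraries.

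Hepatic stellate cells lie between the sinusoidal endothelium and the hepatocytes, where they store vitamin A as retinyl esters and keep a thin matrix. In long-standing injury they lose this store, gain smooth muscle actin and become the main source of fibrillar collagen, the sequence that underlies fibrosis. Fibroblasts around portal veins and the smooth muscle of vessel walls share much of this gene set, while part of the liver's matrix output, plasma fibronectin above all, comes from hepatocytes.

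Libraries held 21485021 to 28480479 estimated counts. Levels of a gene across libraries are given as CPM, counts scaled to the same library size after TMM, a correction for differences in library composition, and levels of different genes are compared only in TPM, which is per transcript length. A gene was called when edgeR's quasi-likelihood test gave a Benjamini-Hochberg adjusted p under 0.05 over the 13686 genes tested. Lox and Timp1 were too low to be tested, which left 38 members. The groups differed in more than the members: mitochondrial genes took 9.79% to 11.4% of counts in AT3 libraries and 11.2% to 16.3% in CPT libraries, against 25.8% to 36.8% in CON libraries, and haemoglobin and Alas2 transcripts took at most 0.00557% in AT3 and CPT libraries, against 0.0659% to 0.0767% in CON libraries. The scaling set where each fold change lay: with total counts alone the median gene tested stood 0.36 higher on the log2 scale in CPT than in CON libraries, against -0.02 with TMM. With TPM it stood 0.29 higher when 1 was added before log2, and 0.51 higher when 0.1 was added. Higher calls were 49.3% of all calls with TMM, 72.7% with total counts and 80.5% with TPM, so a member's change is read against those shifts.

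Most of the set was lower in CPT than in CON livers. Of the 38 members tested, 28 fell and 3 rose (27 and 5 with total counts, 25 and 7 with TPM), while 30.8% of all genes tested fell and 30.0% rose in the same comparison. The median log2 fold change of the members was -1.84, against -0.02 for all genes tested, and 29 members were lower in every CPT library than in every CON library, an order that 32.7% of all genes showed. The 3 that rose were Fn1 (fibronectin), Col18a1 (collagen XVIII) and Mmp14 (a membrane-bound collagenase). In AT3 livers none of the members rose and 4 fell relative to CPT livers, where 2.46% of all genes rose and 2.22% fell, and none of the 4 calls held in every leave-one-out fit. The direction in the set leaned lower there too: 29 of 38 members had a log2 fold change below 0, against 49.9% of all genes. In bulk liver, fewer cells of a type and less RNA per cell cannot be told apart.

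**Figure D1:**
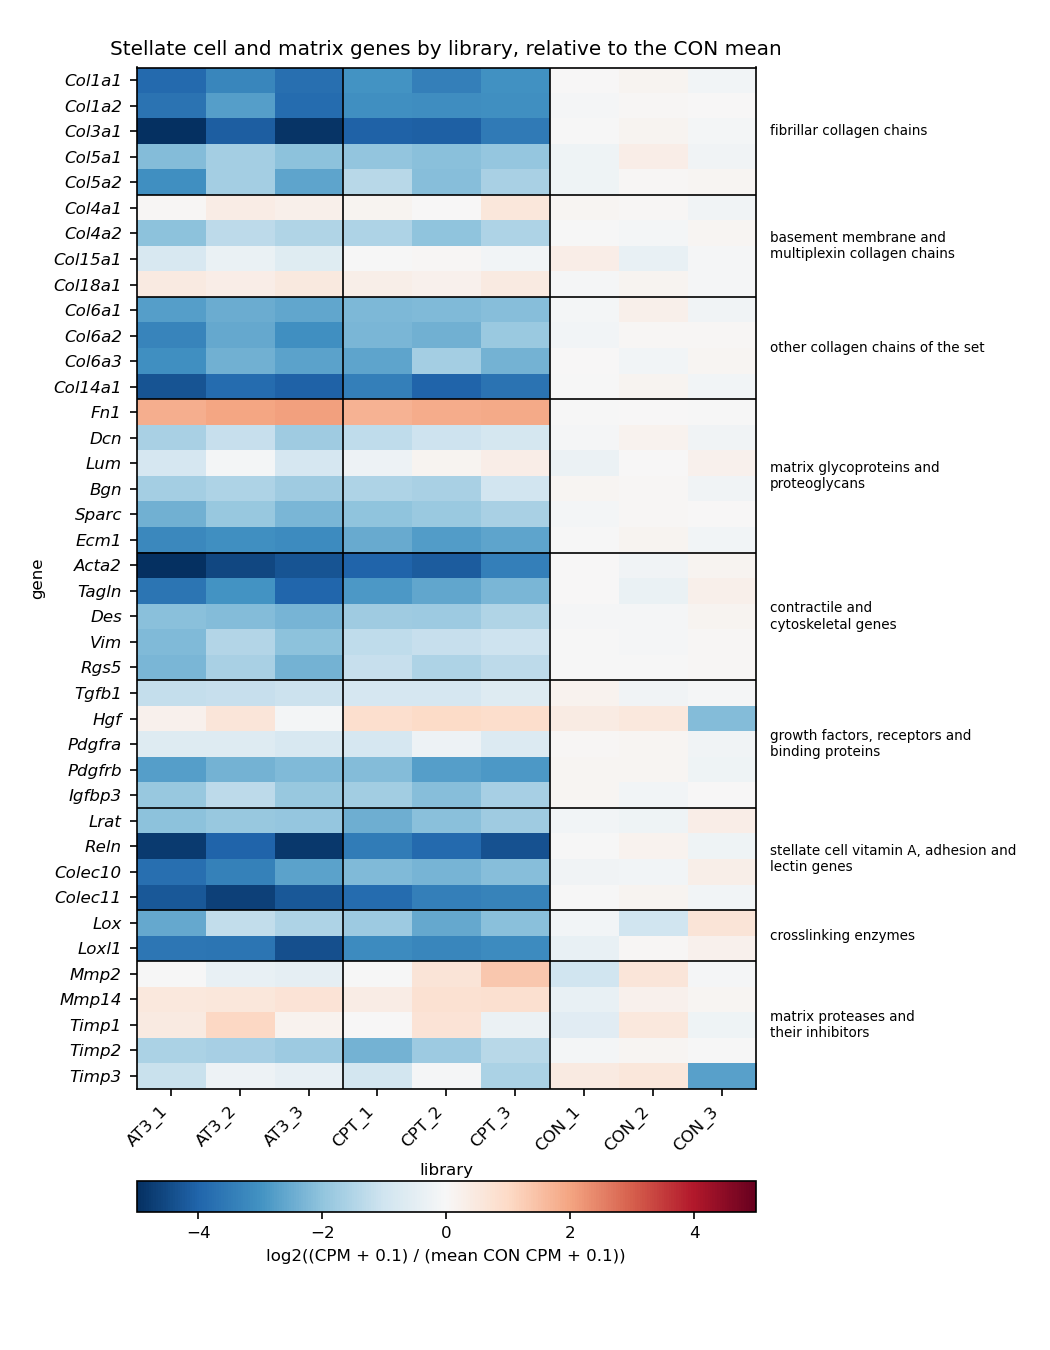
Level of each of the 40 genes (rows, grouped by role) in each library (columns; AT3, CPT and CON from left to right), as log2 of (CPM + 0.1) over the CON mean + 0.1; blue is lower and red higher than the CON mean. The AT3 and CPT columns are blue for most rows, and Fn1 is the row with the strongest red.

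The fibrillar collagens form the load-bearing fibres of scar and portal tract, and all 5 chains tested fell in CPT livers relative to CON livers. Col3a1, the chain of type III collagen (chr1:45311538-45349706 in GRCm38, plus strand), had 0.919, 2.79 and 1.58 CPM in AT3 libraries, 2.97, 2.83 and 4.23 CPM in CPT libraries, and 48.8, 54.8 and 46.9 CPM in CON libraries. In CPM every AT3 library lay below every CPT library, narrowly (2.79 against 2.83), and every CPT library far below every CON library. In TPM AT3 and CPT overlapped, with 0.52 in AT3 replicate 2 against 0.48 in CPT replicate 1. The log2 fold change was -3.92 ± 0.22 (SE) for CPT against CON, an edgeR adjusted p of 8.69e-10, and -0.90 ± 0.27 for AT3 against CPT, an edgeR adjusted p of 0.0702, which missed the threshold.

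Col1a1 and Col1a2, whose products assemble into type I collagen, moved together. Col1a1 had 1.15, 1.85 and 1.25 CPM in AT3 libraries, 2.23, 1.65 and 2.19 CPM in CPT libraries, and 18.7, 20.3 and 16.8 CPM in CON libraries. Col1a2 had 1.44, 2.88 and 1.29 CPM in AT3 libraries, 2.30, 2.21 and 2.31 CPM in CPT libraries, and 19.0, 20.9 and 19.98 CPM in CON libraries. For both genes the CON libraries stood apart, and the AT3 and CPT libraries overlapped; the log2 fold changes for CPT against CON were -3.21 ± 0.17 for Col1a1 and -3.14 ± 0.20 for Col1a2. The ratio of Col1a1 to Col1a2 counts within a library averaged 0.803 ± 0.166 in AT3, 0.889 ± 0.123 in CPT and 0.930 ± 0.079 in CON libraries (SD, n = 3 each), with an exact two-sided permutation p of 0.7 for AT3 against CPT and 0.6 for CPT against CON.

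Col5a1 and Col5a2, chains of the type V collagen that starts fibrils, fell less: the log2 fold changes for CPT against CON were -2.11 ± 0.25 and -1.83 ± 0.39. Col5a2 lies 24.6 kb from Col3a1 on chromosome 1, on the other strand, and had only 5 to 18 counts in AT3 and 13 to 21 counts in CPT libraries. The ratio of Col3a1 to Col5a2 counts averaged 5.61 ± 0.67 in AT3 and 5.96 ± 1.70 in CPT libraries, against 24.3 ± 3.2 in CON libraries, with no overlap between CON and the other groups. The exact permutation p was 0.1 for CPT against CON, the smallest that 3 against 3 allows, as it is for each ratio below whose groups do not overlap; 8 such pairs were compared in 3 contrasts. The fall of Col5a1 rests on the counts, since on the TPM scale the call was lost: it had 0.22, 0.37 and 0.17 TPM in AT3 libraries, 0.34, 0.40 and 0.36 TPM in CPT libraries, and 0.27, 1.02 and 0.27 TPM in CON libraries. The 250 bases before the RefSeq start of Col3a1, shown because it is the fibrillar chain that fell most, are at chr1:45311288-45311537 in GRCm38.p6 on the plus strand, with the letters TATAAA in capitals.
Col3a1: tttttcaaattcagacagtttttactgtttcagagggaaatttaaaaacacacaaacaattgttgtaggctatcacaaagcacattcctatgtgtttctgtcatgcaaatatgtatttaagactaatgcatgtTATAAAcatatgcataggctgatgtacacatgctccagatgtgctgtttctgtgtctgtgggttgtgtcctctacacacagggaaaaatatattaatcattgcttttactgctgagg

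The beaded-filament chains Col6a1, Col6a2 and Col6a3 and the fibril-associated chain Col14a1 also all fell in CPT livers relative to CON livers. Col14a1 had 0.787, 1.13 and 0.967 CPM in AT3 libraries, 1.52, 0.996 and 1.27 CPM in CPT libraries, and 17.0, 19.2 and 16.0 CPM in CON libraries. Its log2 fold change for CPT against CON, -3.79 ± 0.17 with an edgeR adjusted p of 6.74e-11, was beyond those of the type VI chains, which lay between -2.29 and -2.25. The neighbours Col6a1 and Col6a2, 85.2 kb apart on chromosome 10, kept a count ratio of 1.89 ± 0.35 in AT3, 1.40 ± 0.25 in CPT and 1.39 ± 0.18 in CON libraries, which overlapped.

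Collagens of basement membranes and the multiplexins, whose triple helix is interrupted, behaved differently from the fibrillar chains and from each other. Col4a1 and Col4a2 code for the chains that assemble into the type IV network of basement membranes, and they are read in opposite directions from 1 short region of chromosome 8, where the GENCODE gene bounds overlap by 22 bases. Col4a1 had 14.3, 17.8 and 16.3 CPM in AT3 libraries, 15.3, 14.0 and 20.6 CPM in CPT libraries, and 14.6, 14.5 and 12.2 CPM in CON libraries. Col4a2 had 2.69, 4.51 and 4.01 CPM in AT3 libraries, 3.89, 2.77 and 3.88 CPM in CPT libraries, and 11.2, 10.8 and 12.3 CPM in CON libraries. Col4a1 therefore overlapped between all groups, with a log2 fold change of 0.27 ± 0.14 for CPT against CON and an edgeR adjusted p of 0.112, while Col4a2 fell by 1.71 ± 0.18, an edgeR adjusted p of 9.19e-07. With total counts or TPM in place of TMM scaling Col4a1 was called higher, by 0.65 and 0.42.

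The count ratio of Col4a1 to Col4a2 was 5.30, 3.94 and 4.07 in AT3 libraries, 3.95, 5.07 and 5.30 in CPT libraries, and 1.31, 1.34 and 0.986 in CON libraries. A ratio within a library does not move with scaling, so it shows unequal change of the pair under any of the scalings; it does not show which of them moved. In TPM, per length, the ratio averaged 5.42 ± 1.0 in AT3, 6.88 ± 0.90 in CPT and 2.14 ± 0.38 in CON libraries. The labels do not say whether reads were counted by strand, so reads from the short overlap could be given to either gene. The 30 bases around it, at chr8:11312801-11312830 in GRCm38.p6 on the plus strand, show the overlap in capitals.
Col4a1 and Col4a2 start region: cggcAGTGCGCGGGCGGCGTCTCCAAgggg

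**Figure D2:**
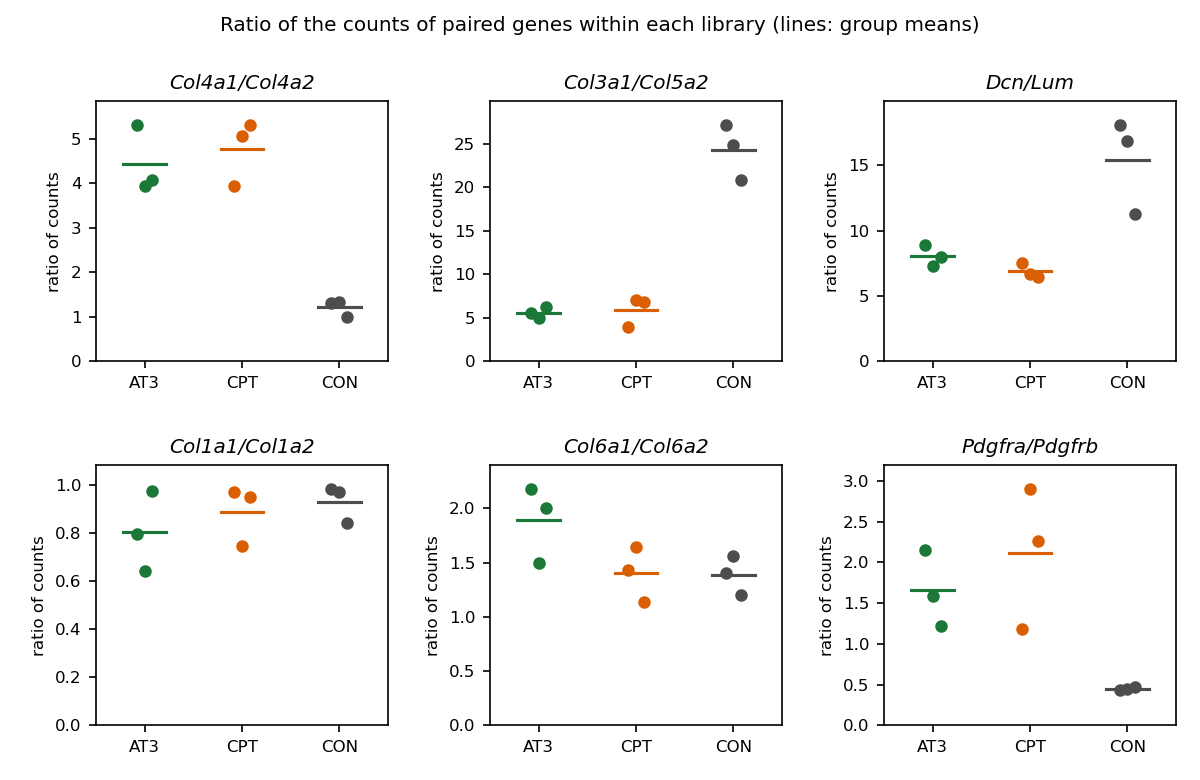
Ratio of the counts of paired genes within each library, 1 panel a pair, with the AT3, CPT and CON groups from left to right; points are libraries and lines group means. For Col4a1/Col4a2 the CON libraries lie between 0.986 and 1.34 and the others at or above 3.94, and for Col1a1/Col1a2 the groups overlap.

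Col18a1, the collagen whose C-terminal fragment is endostatin, rose. It had 453, 416 and 461 CPM in AT3 libraries, 407, 382 and 446 CPM in CPT libraries, and 318, 359 and 312 CPM in CON libraries. Every AT3 and CPT library was above every CON library, and AT3 and CPT overlapped. The log2 fold change was 0.32 ± 0.10 for CPT against CON (edgeR adjusted p = 0.0112) and 0.43 ± 0.10 for AT3 against CON (edgeR adjusted p = 0.00143). Col15a1, the other multiplexin, had 2.30, 3.20 and 2.58 CPM in AT3 libraries, 3.92, 4.2 and 3.69 CPM in CPT libraries, and 5.11, 3.06 and 3.88 CPM in CON libraries. Its CPT and CON libraries overlapped with a log2 fold change of -0.01 ± 0.20, which turned to 0.38 with total counts and 0.37 with TPM, where it was called higher.

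With Col18a1 rising and most other chains falling, the make-up of collagen transcripts changed. In TPM summed over the 13 chains, Col18a1 took 90.9% to 93.9% in AT3 libraries and 89.4% to 89.7% in CPT libraries, against 65.1% to 66.2% in CON libraries. Col3a1, the second chain in CON livers, took 0.171% to 0.541% in AT3 libraries and 0.589% to 0.878% in CPT libraries, against 8.93% to 9.08% in CON libraries. Without Col18a1 the sum was 6.09 to 8.77 TPM in AT3 libraries and 8.68 to 10.1 TPM in CPT libraries, against 17.4 to 27.2 TPM in CON libraries. The AT3 and CPT sums overlapped, and all were below the lowest CON library. The 250 bases shown lie before the upstream of the 2 RefSeq starts of Col18a1, a member that rose. They are at chr10:77166531-77166780 in GRCm38.p6 on the minus strand. Capitals mark CCAAT and GGGCGG, here all on the complementary strand and so read as ATTGG and CCGCCC. The 250 bases before the downstream start, at chr10:77113706-77113955, hold no CCAAT or GGGCGG on either strand. Counts per gene do not tell which start was used.
Col18a1: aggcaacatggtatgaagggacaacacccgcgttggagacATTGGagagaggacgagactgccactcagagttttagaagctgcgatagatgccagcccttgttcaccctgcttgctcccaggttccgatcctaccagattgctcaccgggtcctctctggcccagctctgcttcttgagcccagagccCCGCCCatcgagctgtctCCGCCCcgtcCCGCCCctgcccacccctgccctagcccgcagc

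**Figure D3:**
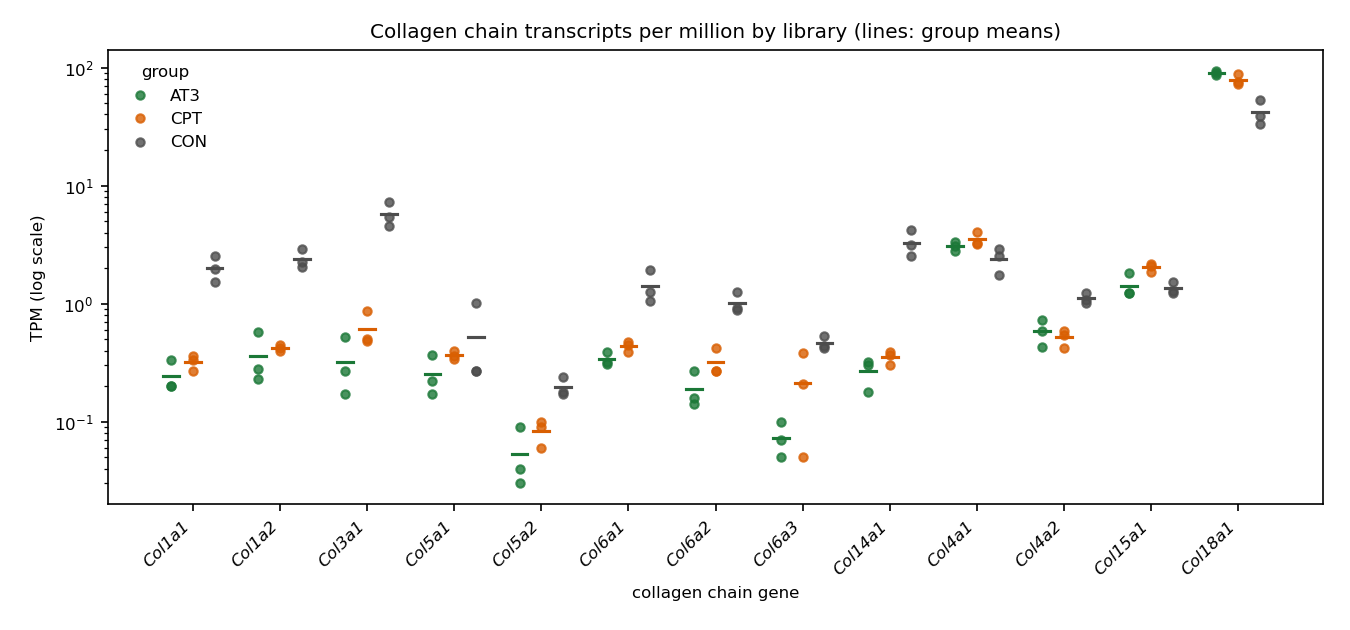
TPM of the 13 collagen chain genes in each library on a log axis, with AT3, CPT and CON from left to right within a gene; points are libraries and lines group means. Col18a1 is highest in every group, and the fibrillar chains lie lower in AT3 and CPT than in CON except where the Col5a1 points overlap.

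Among the glycoproteins and proteoglycans, 4 of 6 fell, 1 rose and 1 was not called in CPT against CON livers. Fn1, whose product joins collagen to integrins and circulates in plasma, had 1038, 1132 and 1201 CPM in AT3 libraries, 965, 1054 and 1076 CPM in CPT libraries, and 291, 297 and 288 CPM in CON libraries. Its CON libraries lay below all others by a wide margin, and AT3 and CPT overlapped. The log2 fold change was 1.82 ± 0.10 for CPT against CON, with an edgeR adjusted p of 6.11e-10, and 0.12 ± 0.10 for AT3 against CPT, with an edgeR adjusted p of 0.52.

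Ecm1, a secreted glycoprotein that binds other matrix proteins, went the other way. It had 20.7, 23.5 and 21.8 CPM in AT3 libraries, 34.0, 28.1 and 31.2 CPM in CPT libraries, and 191, 215 and 180 CPM in CON libraries. The 3 groups did not overlap. The log2 fold change was -2.65 ± 0.11 for CPT against CON (edgeR adjusted p = 2.59e-11) and -0.50 ± 0.11 for AT3 against CPT (edgeR adjusted p = 0.0155). These opposite changes swapped the leading gene of the set: of all TPM of the 40 members, Fn1 took 59.3% to 61.9% in AT3 and 54.3% to 57.7% in CPT libraries, against 10.5% to 10.9% in CON libraries, and Ecm1 took 9.20% to 10.01% in AT3 and 11.4% to 15.4% in CPT libraries, against 56.1% to 56.6% in CON libraries. The summed TPM of the set stayed within the spread of the CON libraries, at 455 to 493 in AT3, 413 to 482 in CPT and 390 to 573 in CON libraries. The summed CPM did not: it was 1621 to 1800 in AT3 and 1547 to 1730 in CPT, against 1235 to 1366 in CON libraries.

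The small leucine-rich proteoglycans, which bind fibrils and set their width, differed among themselves. Dcn (decorin) and Bgn (biglycan) fell in CPT relative to CON livers, with log2 fold changes of -1.06 ± 0.15 and -1.35 ± 0.15, the first of which lost its call on the TPM scale. Lum (lumican), 47.0 kb from Dcn on chromosome 10, had 2.13, 3.64 and 2.15 CPM in AT3 libraries, 3.25, 4.27 and 4.88 CPM in CPT libraries, and 3.15, 3.96 and 4.62 CPM in CON libraries, which overlapped throughout. The Dcn to Lum count ratio averaged 8.05 ± 0.80 in AT3 and 6.91 ± 0.57 in CPT libraries, against 15.4 ± 3.6 in CON libraries, with the lowest CON ratio above all others. Sparc, a collagen-binding protein of remodelling tissue, averaged 8.78 ± 1.63 CPM in AT3, 11.4 ± 1.7 CPM in CPT and 40.2 ± 2.2 CPM in CON libraries (SD, n = 3 each), and fell with a log2 fold change of -1.82 ± 0.13 for CPT against CON.

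All 5 contractile and cytoskeletal genes fell in CPT relative to CON livers. Acta2, the smooth muscle actin that marks activated stellate cells and vessel walls, had 0.295, 0.564 and 0.681 CPM in AT3 libraries, 0.883, 0.778 and 1.38 CPM in CPT libraries, and 16.1, 13.8 and 17.1 CPM in CON libraries. In CPM the AT3 libraries were below the CPT libraries, and the CPT libraries below the CON libraries. In TPM AT3 and CPT overlapped, at 0.45 in AT3 replicate 2 against 0.42 in CPT replicate 1. The log2 fold change was -3.96 ± 0.22 for CPT against CON (edgeR adjusted p = 5.58e-10) and -0.97 ± 0.31 for AT3 against CPT (edgeR adjusted p = 0.0856, not called).

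Tagln, an actin-binding protein of smooth muscle, fell by 2.65 ± 0.25 and Des (desmin, the intermediate filament of muscle and stellate cells) by 1.73 ± 0.16 on the log2 scale in CPT against CON livers. Vim (vimentin, the filament of mesenchymal cells) had 3.22, 5.42 and 3.65 CPM in AT3 libraries, 6.29, 6.79 and 7.34 CPM in CPT libraries, and 15.3, 14.6 and 16.0 CPM in CON libraries. Rgs5, a pericyte regulator of G-protein signalling, had 3.74, 5.92 and 3.58 CPM in AT3 libraries, 8.23, 6.38 and 7.46 CPM in CPT libraries, and 18.4, 18.2 and 19.3 CPM in CON libraries. In CPM the 3 groups were ordered without overlap for both genes, with AT3 replicate 2 the nearest to the CPT libraries. In TPM this order held for Rgs5, while Vim overlapped, at 3.05 in AT3 replicate 2 against 2.96 in CPT replicate 1. The log2 fold changes for AT3 against CPT were -0.73 ± 0.16 for Vim (edgeR adjusted p = 0.0210) and -0.73 ± 0.17 for Rgs5 (edgeR adjusted p = 0.0241). The 250 bases before the RefSeq start of Acta2, at chr19:34255374-34255623 in GRCm38.p6 on the minus strand, hold 2 CArG-like stretches in capitals (CC, then 6 bases of which at least 5 are A or T, then GG), the pattern bound by serum response factor in smooth muscle genes.
Acta2: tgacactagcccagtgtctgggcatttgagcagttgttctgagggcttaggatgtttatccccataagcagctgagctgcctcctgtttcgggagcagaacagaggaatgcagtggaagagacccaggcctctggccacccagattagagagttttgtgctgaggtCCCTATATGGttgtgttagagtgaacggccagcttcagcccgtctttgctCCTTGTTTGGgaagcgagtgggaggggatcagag

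Among growth factors, receptors and binding proteins, Tgfb1, Pdgfrb and Igfbp3 fell in CPT relative to CON livers and Pdgfra and Hgf were not called. Pdgfrb, the receptor through which platelet-derived growth factor drives stellate cells, had 0.623, 0.846 and 0.967 CPM in AT3 libraries, 0.989, 0.623 and 0.577 CPM in CPT libraries, and 5.23, 5.10 and 4.11 CPM in CON libraries. Its log2 fold change for CPT against CON was -2.72 ± 0.27, whereas that of Pdgfra, the partner receptor, was -0.58 ± 0.25 with an edgeR adjusted p of 0.0574 and turned to 0.03 on the TPM scale. The count ratio of Pdgfra to Pdgfrb averaged 1.66 ± 0.47 in AT3 and 2.12 ± 0.87 in CPT libraries, against 0.447 ± 0.018 in CON libraries, without overlap between CON and the others.

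Tgfb1, the main fibrogenic cytokine, fell by 0.79 ± 0.19 in CPT against CON livers (edgeR adjusted p = 0.00178), a call lost with total counts or TPM. Igfbp3, a carrier of insulin-like growth factors, averaged 4.2 ± 1.08 CPM in AT3 and 3.77 ± 0.66 CPM in CPT libraries, against 13.6 ± 1.2 CPM in CON libraries (SD, n = 3 each). Hgf, the hepatocyte mitogen made by stellate cells, was near its detection limit with 13, 19 and 9 counts in AT3, 20, 25 and 19 in CPT, and 9, 14 and 0 in CON libraries. It was listed at 0 in CON replicate 3 and was called in no comparison, although on the TPM scale it was called higher in CPT against CON.

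Genes of vitamin A storage, adhesion and lectins that mark quiescent stellate cells all fell in CPT relative to CON livers. Reln (reelin, a large adhesion-modulating glycoprotein) had 0.755, 1.38 and 0.716 CPM in AT3 libraries, 1.98, 1.46 and 1.04 CPM in CPT libraries, and 23.1, 26.6 and 20.3 CPM in CON libraries. Colec11, which codes for a soluble lectin of the complement system, had 0.755, 0.533 and 0.752 CPM in AT3 libraries, 1.02, 1.40 and 1.5 CPM in CPT libraries, and 15.7, 17.9 and 14.7 CPM in CON libraries. In both genes every AT3 and CPT library was less than the lowest CON library, and in Colec11 the AT3 libraries were also all below the CPT libraries.

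The log2 fold changes for CPT against CON were -3.96 ± 0.21 for Reln and -3.62 ± 0.17 for Colec11, and for AT3 against CPT Colec11 fell by 0.95 ± 0.23 (edgeR adjusted p = 0.0305). That call was lost in 4 of 9 leave-one-out fits, with total counts, on the TPM scale, with a replicate block and in a fit of only the 6 libraries compared. Its partner lectin Colec10 averaged 0.586 ± 0.277 CPM in AT3, 1.26 ± 0.10 CPM in CPT and 6.19 ± 1.22 CPM in CON libraries (SD, n = 3 each), with an edgeR adjusted p of 0.0561 for AT3 against CPT. Lrat, the enzyme that esterifies retinol for storage, had 0.919, 1.03 and 1.0 CPM in AT3 libraries, 0.671, 0.903 and 1.15 CPM in CPT libraries, and 3.71, 3.53 and 5.18 CPM in CON libraries, so that AT3 and CPT overlapped below CON. The 250 bases before the RefSeq start of Reln, at chr5:22344706-22344955 in GRCm38.p6 on the minus strand, hold 6 GGGCGG stretches, in capitals.
Reln: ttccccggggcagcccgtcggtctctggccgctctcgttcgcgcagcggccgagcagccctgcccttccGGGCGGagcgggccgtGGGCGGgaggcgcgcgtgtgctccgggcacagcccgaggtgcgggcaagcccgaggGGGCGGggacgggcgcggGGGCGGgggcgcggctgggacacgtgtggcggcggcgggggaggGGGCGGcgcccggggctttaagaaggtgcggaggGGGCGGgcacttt

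Crosslinking and turnover genes gave mixed results. Loxl1, which oxidises lysines of elastin and collagen, had 6, 6 and 2 counts in AT3, 9, 9 and 8 in CPT, and 49, 95 and 74 in CON libraries, and fell by 3.54 ± 0.34 in CPT against CON livers on the log2 scale (edgeR adjusted p = 3.11e-07). Its sister enzyme Lox, untested, had 0, 5 and 3 counts in AT3, 2, 0 and 1 in CPT, and 8, 5 and 15 in CON libraries. Mmp14 had 17.8, 18.3 and 20.3 CPM in AT3 libraries, 16.2, 21.1 and 22 CPM in CPT libraries, and 9.55, 14.4 and 13.5 CPM in CON libraries. Each AT3 and CPT library stood above the CON libraries, with a log2 fold change of 0.66 ± 0.15 for CPT against CON and an edgeR adjusted p of 0.00118.

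Mmp2, the gelatinase that Mmp14 activates, was scattered, with 0.755, 0.564 and 0.537 CPM in AT3, 0.742, 1.25 and 2.08 CPM in CPT, and 0.337, 1.22 and 0.732 CPM in CON libraries, and was called in no comparison, although it was called higher in CPT against CON with total counts, at 1.13. Of the tissue inhibitors of these proteases, Timp2 fell by 1.87 ± 0.22 in CPT against CON livers and Timp3 was not called, with 0 counts in CON replicate 3 against 14 and 22 in the other CON libraries. Timp1, the inhibitor that fibrotic livers make in quantity, had only 10, 17 and 7 counts in AT3, 6, 13 and 4 in CPT, and 2, 9 and 3 in CON libraries. The 250 bases before the RefSeq start of Mmp14, at chr14:54431348-54431597 in GRCm38.p6 on the plus strand, are given as those of another member that rose; capitals mark GGGCGG, a CArG-like stretch, and CCAAT as it reads on the complementary strand. The last CCAAT match shares 1 base with the match after it.
Mmp14: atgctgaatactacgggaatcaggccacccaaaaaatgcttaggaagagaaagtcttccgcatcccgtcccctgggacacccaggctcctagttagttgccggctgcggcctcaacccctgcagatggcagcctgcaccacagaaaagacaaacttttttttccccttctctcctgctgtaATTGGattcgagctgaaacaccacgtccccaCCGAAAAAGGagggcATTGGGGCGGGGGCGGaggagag

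RefSeq held 31 promoter entries for 28 of the 40 members, read over the 250 bases before the start, on both strands. GGGCGG was in 51.6% of them, against 32.7% of all 32851 promoters of the table, and a CArG-like stretch in 19.4% (6 of 31), against 8.59%. Of the 21 entries of members that fell in CPT against CON livers, 4 (19.0%) held a CArG-like stretch. CCAAT was in 32.3% against 33.8%, and TATAAA or TATATA in 16.1% against 15.6%. Member promoters had a median GC content of 58.4%, against 52.4% for all, and the share of GGGCGG moves with GC.

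**Figure D4:**
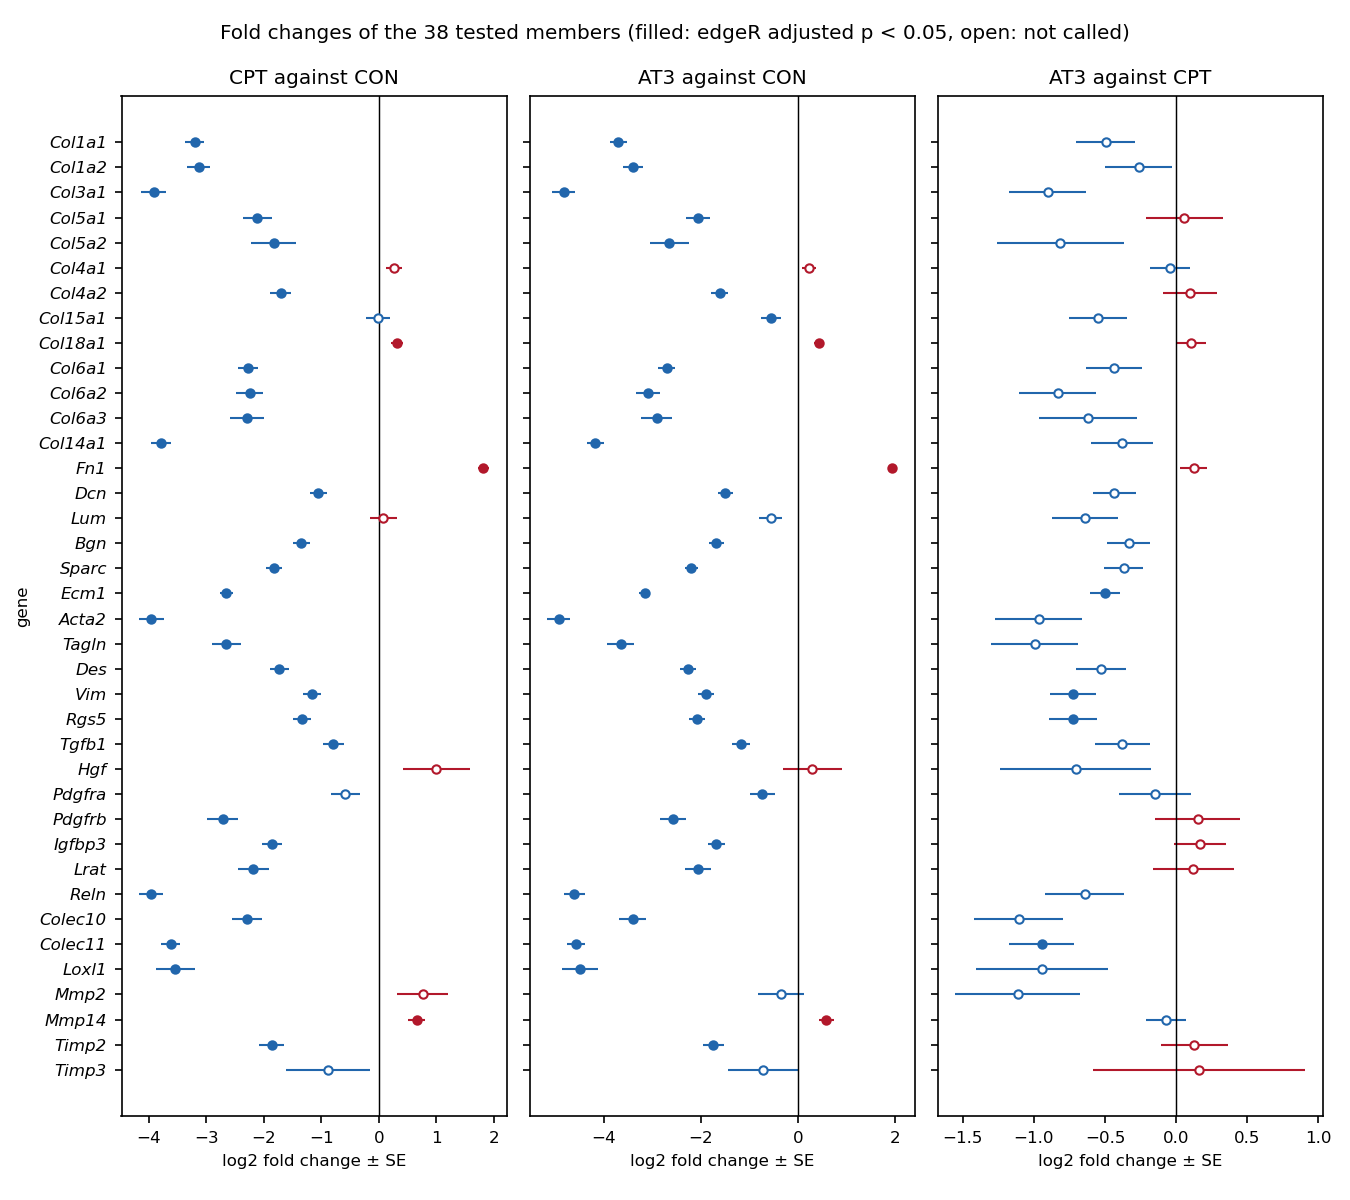
Log2 fold change (points) with its standard error (bars) for the 38 tested members in CPT against CON, AT3 against CON and AT3 against CPT; filled points passed the edgeR adjusted p of 0.05, and the last panel has a narrower axis. In the first panel 28 filled points lie left of 0 and 3 right of it, and in the last panel 4 filled points lie left of 0.

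Against CON livers, AT3 livers gave 30 members that fell and 3 that rose, where 32.9% and 31.5% of all genes did. Of the members 29 were lower and 3 higher in all AT3 libraries than in all CON libraries, an order that 35.9% and 34.5% of all genes showed, and 33 had a log2 fold change below 0, against 51.7% of all genes. This comparison shares its AT3 libraries and its CON libraries with the other comparisons, so the values are set side by side only. Fn1 had a log2 fold change of 1.94 ± 0.10, Col18a1 of 0.43 ± 0.10 and Mmp14 of 0.59 ± 0.15 for AT3 against CON. The deepest were Acta2 at -4.92 ± 0.24, Col3a1 at -4.82 ± 0.24, Reln at -4.60 ± 0.22 and Colec11 at -4.57 ± 0.19. Col4a1, Lum, Hgf, Mmp2 and Timp3 were not called, with Lum at an edgeR adjusted p of 0.0513. Col15a1 and Pdgfra were called here, at -0.56 ± 0.21 and -0.73 ± 0.26, but both calls were lost with DESeq2, with total counts and without the filter on low counts, and on the TPM scale their signs turned. The calls of Col5a1, Tgfb1 and Timp2 in AT3 against CON were also lost in all 3 TPM versions. Leaving out 1 library ended the call of Col15a1 in 4 of 9 fits (without AT3 replicate 1, AT3 replicate 3, CPT replicate 1 or CON replicate 1) and that of Pdgfra in 3 (without AT3 replicate 3, CON replicate 1 or CON replicate 2).

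Of the 4 falls in AT3 against CPT livers, Ecm1, Vim, Rgs5 and Colec11, none held in all leave-one-out fits: without AT3 replicate 1 none of the members was called, without AT3 replicate 3 only Colec10 was, and without CPT replicate 1 or CPT replicate 2 the count was 2. With total counts or TPM the count was also 0. Over the set, in CPM, 15 of 38 members were lower in all AT3 libraries than in all CPT libraries and none was higher, where 12.5% of all genes were lower and 14.5% higher. Neutrophil transcripts moved in the same comparison, in which 2.46% of all genes rose and 2.22% fell: 3 of the 6 tested fell. Their summed level was 12.9 to 14.0 CPM in AT3, 24.4 to 51.0 CPM in CPT and 4.0 to 4.89 CPM in CON libraries, with Ly6g and Mpo at no more than 3 counts in any library. Hepatocyte markers went the other way, with 4 of 12 called higher and none lower, and a summed level of 119736 to 128124 CPM in AT3 libraries, against 81611 to 105928 CPM in CPT libraries. Of Kupffer cell and macrophage markers 2 of 14 rose, with 61.9 to 70.2 CPM in AT3 and 49.8 to 54.5 CPM in CPT libraries, and of endothelial markers 1 of 21 rose and 3 had a log2 fold change below 0. The part of these lists in the members' values was not tested.

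Other genes of matrix building were counted from lists that, like the members, were chosen with earlier results of these data known. The counts are set beside the 30.0% of all genes that rose and the 30.8% that fell in CPT against CON livers. Of 18 enzymes and chaperones of collagen maturation tested in CPT against CON livers, 4 rose and 9 fell. Those that fell included Serpinh1 (the collagen chaperone HSP47), by 2.5 ± 0.27 on the log2 scale, Pcolce (the enhancer of procollagen cleavage), by 2.35 ± 0.20, and Adamts2 (the amino-propeptide cleaving enzyme), by 2.57 ± 0.26. P4hb, the disulphide isomerase subunit of prolyl hydroxylase that also folds other secreted proteins, rose, with 1322 ± 45 CPM in AT3 and 1343 ± 158 CPM in CPT libraries, against 463 ± 26 CPM in CON libraries (SD, n = 3 each).

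Of 37 laminins, elastic fibre and other matrix glycoproteins, 33 fell and none rose in CPT against CON livers. Ltbp4, which holds latent TGF-beta in the matrix, had a log2 fold change of -4.24 ± 0.20, and Eln (elastin) one of -3.65 ± 0.29. In the TGF-beta pathway 10 of 20 fell and 2 rose. Skil, an inhibitor of SMAD proteins, had 12.4, 14.9 and 11.7 CPM in AT3 libraries, 5.41, 5.88 and 6.5 CPM in CPT libraries, and 2.36, 3.57 and 4.95 CPM in CON libraries, ordered without overlap, and rose by 1.13 ± 0.17 in AT3 against CPT (edgeR adjusted p = 0.00223). Leaving out any 1 library did not end that call, while it was lost in 2 of the 3 TPM versions. Among 6 further collagen chains 3 fell and 1 rose, among 14 partners of PDGF, HGF and IGF 7 fell and 5 rose, and among 21 integrins and other matrix receptors 11 fell and 4 rose. Of 17 other matrix proteases and inhibitors 7 rose and 6 fell in CPT against CON, or 41.2% and 35.3%, which is near the shares of all genes.

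Markers of most other cell types were more often called lower than higher in CPT against CON livers, while hepatocyte and neutrophil markers were more often called higher. Of all genes tested, 30.8% fell and 30.0% rose in this comparison. Of 15 other stellate cell markers tested, 12 fell and none rose in CPT against CON livers; Gfap was at 0 to 4 counts in all libraries.

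Of sinusoidal and vascular endothelial markers 19 of 21 fell, with a summed level of 44.1 to 62.5 CPM in AT3 and 41.2 to 52.7 CPM in CPT, against 239 to 242 CPM in CON libraries. Smooth muscle and pericyte markers gave 10 lower and 2 higher of 13, portal fibroblast and mesothelium markers 5 lower and none higher of 6, and Kupffer cell and macrophage markers 8 lower and 1 higher of 14. Red cell transcripts fell in 5 of 5, to 38.4 to 44.5 CPM in AT3 and 42.7 to 50.9 CPM in CPT, against 797 to 907 CPM in CON libraries. Hepatocyte markers gave 6 higher and 3 lower of 12 (50% and 25%) and neutrophil markers 5 higher and none lower of 6. Cholangiocyte markers gave 2 lower of 5 (40%), with Cftr at 0 in all libraries. The shares of hepatocyte and cholangiocyte markers that fell were near the 30.8% of all genes. The only lymphocyte marker tested, Cd79a, fell. The part of these shifts in the members' values was not tested.

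**Figure D5:**
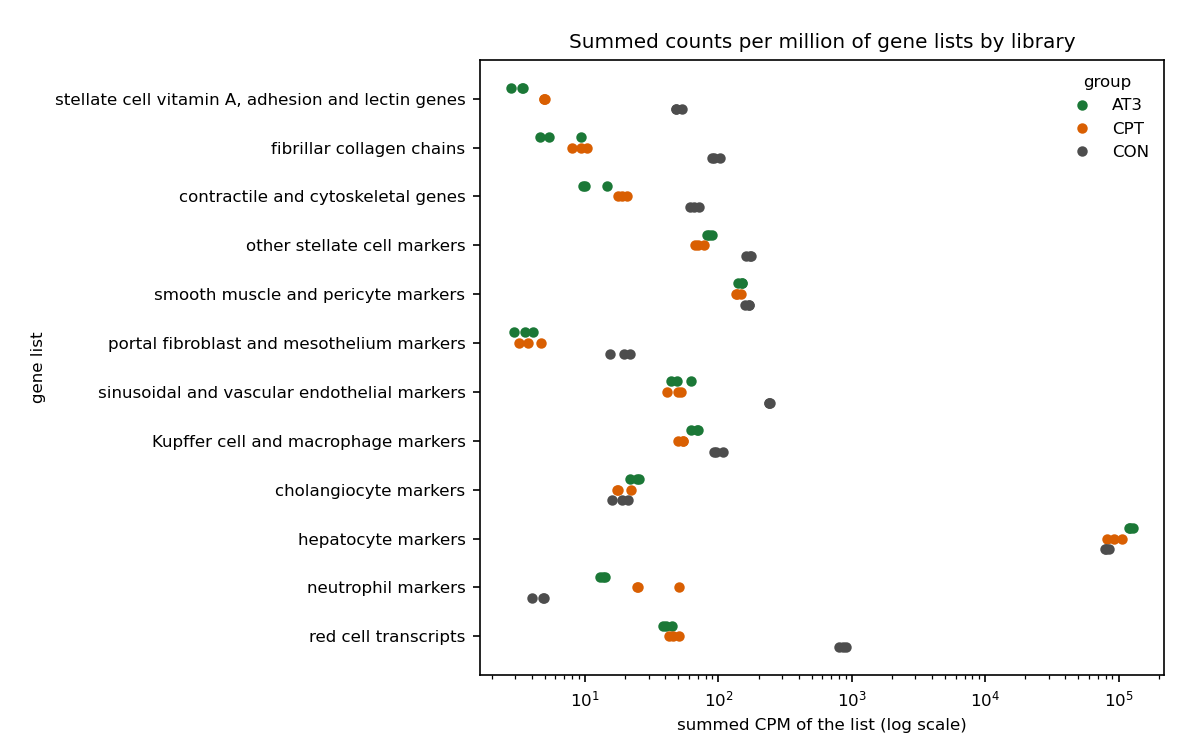
Summed CPM of 12 gene lists (rows) in each library on a log axis, with AT3 above CPT above CON within a row; points are libraries. Stellate, collagen, endothelial and red cell rows have the CON libraries to the right of the others, and the neutrophil row has CON at the left and CPT at the right.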

How the data were processed

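RNA-seq libraries were made from total RNA of mouse liver, 3 each in the AT3, CPT and CON groups, as the sample titles name them. The authors deposited estimated counts and TPM per gene in separate tables. No source used here names the aligner or counter, and the genome builds listed in the submitters' processing notes are GRCm38, GRCm39 and mm10, without saying what each was for. The deposited TPM values were used for levels across genes. Estimated counts were rounded (7.96% to 9.55% of values were not whole) and tested with edgeR 4.0.16 (R 4.3.3): TMM, filterByExpr, a quasi-likelihood test in a model of group alone over the 9 libraries, and Benjamini-Hochberg adjustment over 13686 genes. Count ratios were tested by exact permutation. The alternatives used DESeq2 1.42.0 and limma 3.58.1, with 1 or 0.1 added to TPM before log2. The 3 group-mean columns were not used. Positions are from GENCODE M21 (GRCm38), which held all 40 members, and promoter sequences from RefSeq (GRCm38.p6). The level of 3 counts was 0.0934 to 0.169 CPM. A count of 0 allows up to that level, for counting error only. Rows without a symbol held at most 0.220% of counts. The fits were tested on simulated data. Members and lists were chosen with earlier results of these data known; every member is described, and genes of other lists are among the up to 3 called with the lowest p in each direction and a mean of at least 1 CPM in either group, or markers at or near 0. Some genes of the other lists are not reported here.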

Additional observations from a re-analysis of the deposited data

How the results depend on the processing

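The 28 falls and 3 rises of CPT against CON held in all 9 fits that left out 1 library and, with the exception of Tgfb1 with total counts, in the 7 alternatives on counts; on TPM, 22 of the 28 held in all 3 versions, and the 6 lost in at least 1 were Col5a1, Col6a3, Dcn, Bgn, Tgfb1 and Timp2. Members called higher there were 5 with total counts, 7 and 6 on log2 TPM with 1 and 0.1 added, and 3 to 5 without 1 library, the last without CPT replicate 1. Members called lower in AT3 against CPT, 4 here, were 7 with DESeq2, 0 with total counts, 10 without the filter on low counts, 0 on each of the 3 TPM versions, and 0 to 5 without 1 library; all genes called there, 641 here, were 186 with total counts, 1173 without the filter, 45, 32 and 20 on TPM with 1 added, with 0.1 added and without the filter, and 169 to 1316 without 1 library (178, 169 and 228 without AT3 replicate 1, 2 and 3, and 354, 227 and 1316 without CPT replicate 1, 2 and 3). Of calls in AT3 against CON, 48.9% were higher with TMM, 70.0% with total counts and 80.5% with TPM.

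Signs turned mainly for small changes. For CPT against CON, Col15a1 was 0.025 with DESeq2, 0.0025 with its size factors, 0.38 with total counts, 0.027 without mitochondrial and the 10 most abundant genes, 0.074 without the filter, and 0.37, 0.56 and 0.37 on the 3 TPM versions, where Pdgfra was 0.031, 0.12 and 0.031. On those versions Col5a1 was -0.13, -0.44 and -0.13 and Mmp14 0.020, 0.024 and 0.020 for AT3 against CPT, and for AT3 against CON Col15a1 was 0.037, 0.054 and 0.037, Lum 0.057, 0.088 and 0.057, and Pdgfra 0.0081, 0.034 and 0.0081; Mmp2 was 0.0099 with total counts. Without 1 library, the range for CPT against CON was -0.19 to 0.20 for Col15a1 and -0.042 to 0.28 for Lum. For AT3 against CPT it was -0.15 to 0.14 for Col4a1, -0.064 to 0.29 for Col4a2, -0.10 to 0.16 for Col5a1, -0.066 to 0.28 for Igfbp3, -0.051 to 0.32 for Lrat, -0.27 to 0.067 for Pdgfra, -0.20 to 0.011 for Mmp14, -0.10 to 0.40 for Timp2 and -0.19 to 0.89 for Timp3. For AT3 against CON it was -0.67 to 0.22 for Mmp2 and -0.22 to 0.83 for Hgf. The cause of these turns was not tested.

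Same-numbered libraries of different groups had correlations of deviations of -0.038 to 0.076, so the numbers were not taken to pair them; with a replicate block the members called were 28 lower and 3 higher in CPT against CON, 4 lower in AT3 against CPT (451 genes in all) and 31 lower and 3 higher in AT3 against CON, and Colec11 lost its call in AT3 against CPT while Colec10 gained one; each AT3 library correlated best with the CPT library of its own number, which is a hint from the data only, and no such order held between CPT and CON. Col5a2, Hgf, Lox, Loxl1, Timp1 and Timp3 had 25 counts or fewer in every AT3 and CPT library, which limits what can be seen of them.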
